A study of Homo sapiens with 9 samples.

Results

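Dense clusters of constitutive open regions were examined in 22Rv1 cells, a human prostate carcinoma line, by ATAC-seq, which maps open chromatin from where a transposase can insert into DNA. A constitutive region was a merged interval on chromosomes 1 to 22 or X that held a peak in all 9 libraries. Constitutive regions on one chromosome were stitched together wherever the gap between neighbours was at most 12500 bp, and a stitched cluster was called dense when it held 10 or more regions. The members were thus chosen by the presence and position of peaks in these same libraries, not by the size of any change. The 9 peak lists merged into 128994 regions, of which 59637 were constitutive. These formed 39430 stitched clusters, most of them a single region. Only 63 clusters (0.160%) were dense, and they held 799 regions, or 1.34% of the constitutive ones.

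Neighbouring open regions usually mark gene promoters and the enhancers around them, and stitching at this distance is a customary way to outline stretches of regulatory DNA that lie close together. Active promoters tend to stay open whatever a cell is given, whereas enhancers more often open or close with the transcription factors that bind them. FOXA1 is such a factor: a pioneer that can bind DNA in closed chromatin and that helps to set the enhancers of prostate epithelium.

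The series concerns covalent small molecules that act on FOXA1. All 9 libraries came from 22Rv1 cells gene-edited to express the C1111S form of SF3B1, which forms part of the spliceosome, so the controls carried this change too. The groups were 3 libraries from cells given DMSO (0.1%, the vehicle), 3 given WX-02-23 (20 µM) and 3 given WX-02-43 (20 µM), each for 3 h; the labels call both compounds stereoprobes. The labels do not say whether replicates were separate cultures or whether the edited line was 1 clone, so the p-values speak only to the variation among these libraries, and this may be technical.

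Each list held between 81962 and 105132 peaks, and the median summit pileup was 21 to 24 fragments. Summit pileup is the number of fragments stacked at the tip of a peak. Fold enrichment, the authors' value, is the ratio of that pileup to the local background around it. A library's own median over constitutive regions was subtracted from its log2 values before groups were compared. Being present in all 9 lists was a condition of the choice, so no member could be gained or lost with a compound, and only its height could change. In bulk samples, fewer cells with an open region and less opening per cell cannot be told apart.

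The dense clusters spanned 23.5 to 141 kb, with a median of 64.1 kb, and together covered 4.13 Mb. They held 10 to 25 regions each, with a median of 11. Most were close to the lower limit: 18 clusters held exactly 10 regions and 44 held 10 to 12. Only 6 held 20 or more, and 6 spanned more than 100 kb. Open bases made up 6.84% to 25.9% of a span (median 13.8%). The median gap within a cluster ran from 458 to 10348 bp.

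The cluster with most regions lay on chromosome 9 from 140009043 to 140150139 (hg19). It held 25 regions in 141 kb, and a second dense cluster of 16 regions lay beside it, from 139907571 to 139981832. On chromosome 17, 24 regions lay between 8013172 and 8130461. Chromosome 16 held a cluster of 23 regions from 685585 to 791481 and one of 22 regions from 3139083 to 3241725. Chromosome 19 held 22 regions from 49559182 to 49668964 and 20 regions from 45942804 to 46032657. These 6 largest clusters packed 1.77 to 2.23 regions into each 10 kb, near the median of 1.97 over all 63, and their spans of 89.9 to 141 kb were among the longest.

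The 5 other clusters among the largest 12 each held 14 to 16 regions. Chromosome 12 held 16 regions from 6976495 to 7056002. Chromosome 6 held 16 from 28757143 to 28866377, a span of 109 kb and the fourth longest of all. The remaining ones were 15 regions on chromosome 22 from 46390723 to 46484085, 15 on chromosome 17 from 42143841 to 42220050, and 14 on chromosome X from 130880447 to 130975951. The densest cluster was a short one on chromosome 11, from 118777716 to 118801225, with 11 regions in 23.5 kb, or 4.68 per 10 kb. Its median gap was 1447 bp.

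**Figure D1:**
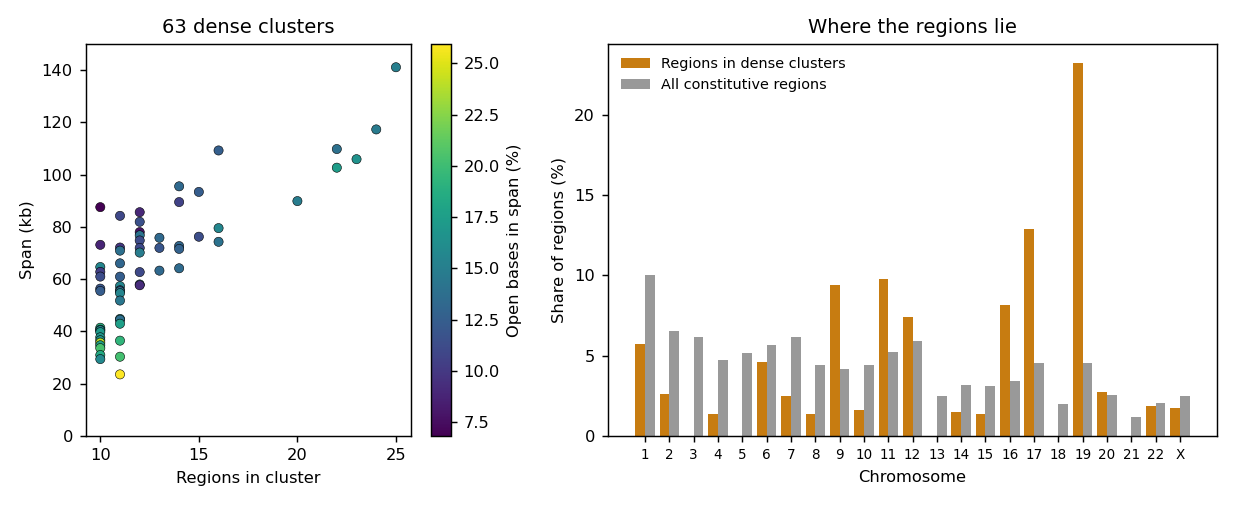
Left, span in kb against number of regions for each of the 63 dense clusters (1 point each), coloured by the percentage of the span that is open; right, the share (%) of the 799 member regions and of all 59637 constitutive regions on each chromosome. Spans run from 23.5 to 141 kb, and chromosome 19 holds 23.3% of the members against 4.54% of all constitutive regions.

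Dense clusters were unevenly placed. Chromosome 19 held 14 of the 63 clusters and 186 of the 799 member regions, which is 23.3% of the members against 4.54% of all constitutive regions. Chromosome 17 held 8 clusters and 12.9% of the members against 4.56%. Chromosomes 11, 9, 12 and 16 followed with 7, 5, 5 and 4 clusters. Chromosome 1, with the most constitutive regions (10.0% of them), held only 4 clusters and 5.76% of the members. Chromosomes 3, 5, 13, 18 and 21 held none. These shares are descriptions, since clustering depends on how closely regions lie and hence on the chromosome's regions per Mb.

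Members also lay towards chromosome ends. Measured from the outermost peak of a chromosome, 19 clusters (30.2%) lay within 5 Mb, and they held 32.4% of the members. Over all constitutive regions the share was 11.4%. Of the 63 dense clusters, 26 had another dense cluster within 1 Mb. Where the chromosome held another, the median distance to the nearest was 1.07 Mb. No share for comparison was computed, and proximity was not separated from the uneven placement over chromosomes. The nearest pair, on chromosome 19 from 7547833 to 7620502 and from 7633295 to 7717501, was separated by 12.8 kb, just beyond the stitching distance. In 27 of 63 clusters the next constitutive region outside lay within 15 kb, so the outline of those clusters depended closely on the gap allowed.

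Member regions were no wider than other constitutive regions, with a median width of 625 bp against 621 bp, but they differed in height. Their median summit pileup was 59.7 fragments against 32.7 for the other 58838 constitutive regions. Their median fold enrichment was lower, 5.97 against 8.85, and the local background around them was higher, 8.85 fragments against 2.65. Tall peaks thus had modest folds, as a fold divides the peak by what surrounds it. Background was worked out from pileup and fold, so it is not a separate measurement. The order held step by step with cluster size. From single regions through clusters of 2 to 4 and of 5 to 9 to dense clusters, median pileup was 27.8, 35.3, 47.7 and 59.7 fragments. Background over the same classes was 1.89, 3.38, 5.72 and 8.85 fragments, and fold was 9.69, 8.23, 7.19 and 5.97. No test was made of these levels, which were read from the same peaks that defined the clusters.

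**Figure D2:**
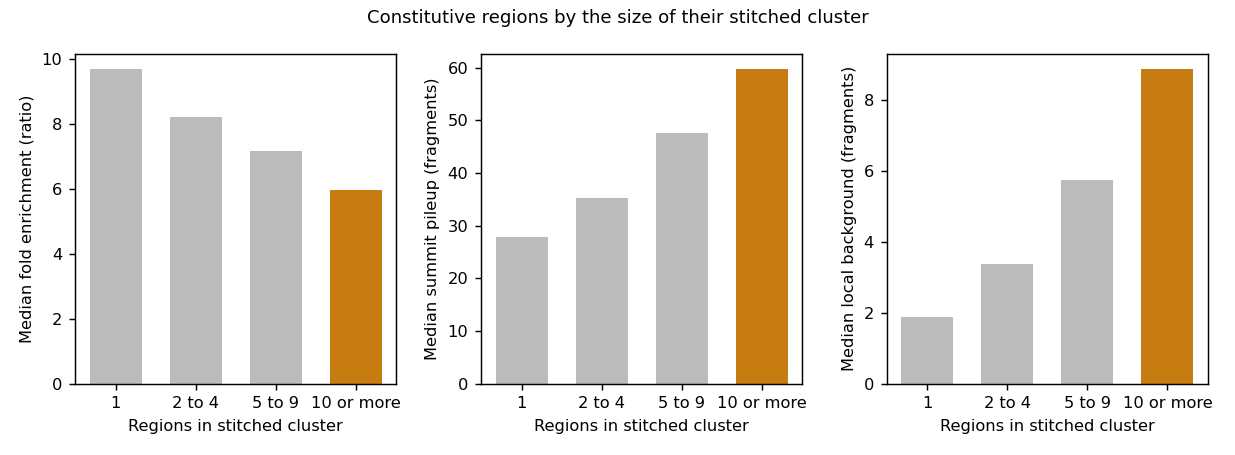
Median fold enrichment (a ratio), summit pileup and local background (both in fragments), averaged over 9 libraries, for constitutive regions in stitched clusters of 1, 2 to 4, 5 to 9 and 10 or more regions. Pileup and background are highest in dense clusters (59.7 and 8.85 fragments), where fold is lowest (5.97).

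Just outside the limit of 10 regions, the 44 clusters of 9 had a median pileup of 56.2 fragments, a median fold of 7.06 and a median span of 47.2 kb. Just inside it, the 18 clusters of exactly 10 had 60.7 fragments, a fold of 5.94 and a span of 40.5 kb.

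Members of one cluster differed widely. Between-cluster differences made up 24.3% of the variance of log2 fold over members, 21.8% of that of log2 pileup and 36.0% of that of log2 background, so most of the variation lay among regions of the same cluster. Cluster medians of fold ran from 3.10 to 10.5. The lowest belonged to a cluster of 10 regions on chromosome 2, from 133014783 to 133044142, and the highest to the cluster of 11 on chromosome 19 from 7633295. The chromosome 2 cluster also held the member with the lowest fold, from 133026765 to 133027053, whose mean fold of 2.02 came from 75.1 fragments on a background of 36.7. The median background of that cluster was 30.6 fragments, the highest of all dense clusters. No regions were left out here for unreliable mapping or copy number, and neither was tested. The member with the highest fold lay on chromosome 14 from 104376434 to 104377017. It reached 18.4, from 85.3 fragments on a background of 3.69. The tallest member, on chromosome 12 from 7055163 to 7056002, averaged 156 fragments, and the lowest, on chromosome 6 from 28823009 to 28823310, averaged 14.3.

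Across libraries, member regions were steady. The median fold over the 799 members was 5.89, 6.13 and 6.14 in the 3 DMSO libraries, 6.01, 6.10 and 6.10 with WX-02-23, and 5.72, 5.86 and 5.77 with WX-02-43. The DMSO and WX-02-23 libraries overlapped, and all 3 WX-02-43 libraries lay below both. The group means were 6.05 ± 0.14, 6.07 ± 0.05 and 5.78 ± 0.07 (SD, n = 3 each). Other constitutive regions also had a lower median fold with WX-02-43, 8.54 ± 0.24 against 9.04 ± 0.59 in DMSO (SD, n = 3 each). Relative to the median of all constitutive regions in the same library, members lay at -0.57 ± 0.06, -0.58 ± 0.04 and -0.56 ± 0.03 on the log2 scale, differences smaller than the spread between replicates.

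WX-02-23 was compared with DMSO to ask how far the compound altered these stretches. Of the 799 members, 1 rose and 1 fell in fold enrichment (limma, adjusted p under 0.05 over all 59637 constitutive regions), together 0.250%. The same test called 1.92% of all constitutive regions, 0.82% higher and 1.1% lower. By cluster size it called 2.63% of single regions, 1.42% in clusters of 2 to 4, 0.892% in clusters of 5 to 9 and 0.250% in dense clusters. The median change of members was 0.01 on the log2 scale, with quartiles of -0.06 and 0.08, beside a median of -0.01 and quartiles of -0.10 and 0.09 over all constitutive regions. For 779 members (97.5%) the 95% interval of the change lay within 1.5-fold either way, against 87.0% of the other constitutive regions. At an unadjusted p under 0.05, 29 members passed (3.63%, against 12.1% of all).

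**Figure D3:**
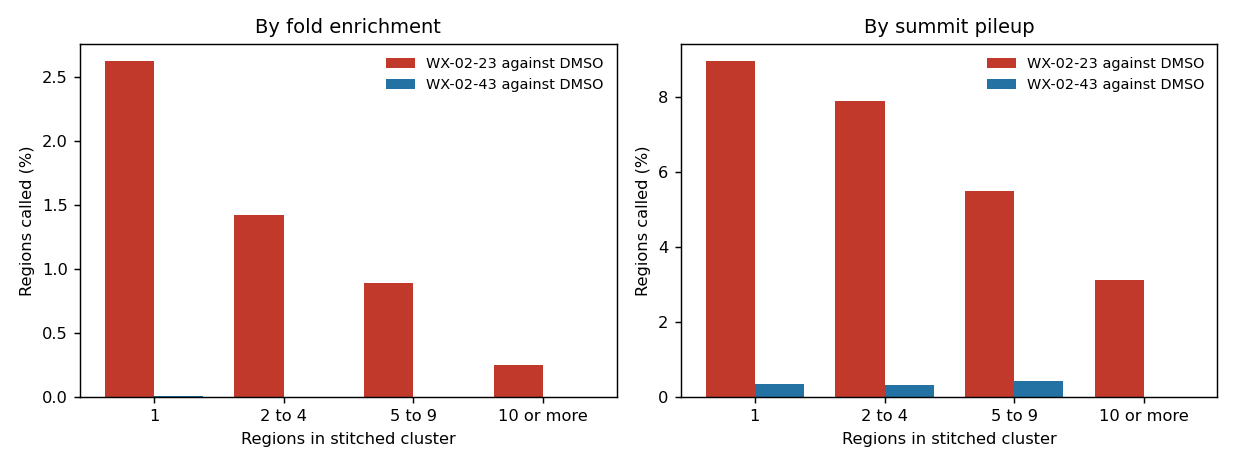
Percentage of constitutive regions called higher or lower against DMSO (limma, adjusted p under 0.05) by the number of regions in their stitched cluster, from fold enrichment on the left and from summit pileup on the right, on different vertical scales. For WX-02-23 the share falls from 2.63% of single regions to 0.250% in dense clusters by fold and from 8.98% to 3.13% by pileup, and for WX-02-43 it is 0 in dense clusters by either measure.

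Each cluster as a whole was then tested, by the mean log2 fold of its regions. None of the 63 dense clusters was called between WX-02-23 and DMSO, where 1.7% of all stitched clusters were, and none passed at an unadjusted p under 0.05 either. Changes ran from -0.07 to 0.08 on the log2 scale with a standard error of 0.05, and 34 of 63 lay above 0. All 63 of the 95% intervals lay within 0.2 of 0, that is within 1.15-fold. The fit by fold pooled the spread over the dense clusters, so each had the same standard error in every comparison. The intervals thus do not measure a cluster's own spread between replicates. Their width also treats the dense clusters as independent of each other, so they may be too narrow. All 63 clusters were read in the same libraries and can shift together, so they are not separate evidence. Among the 12 clusters with most regions, the 25-region cluster on chromosome 9 had a mean fold of 5.37, 5.47 and 5.43 in DMSO, 5.46, 5.77 and 5.83 with WX-02-23 and 5.28, 5.29 and 5.15 with WX-02-43. The WX-02-23 libraries overlapped DMSO at the lower end. Its centred change was 0.06 with a 95% interval from -0.05 to 0.16 (limma, adjusted p = 0.790). The 24-region cluster on chromosome 17 had a mean fold of 5.19, 5.13 and 5.10 in DMSO, 5.00, 5.23 and 5.16 with WX-02-23 and 5.10, 5.01 and 4.85 with WX-02-43. The WX-02-23 libraries lay on either side of the DMSO ones, and the WX-02-43 libraries lay below the lowest DMSO one by a narrow margin. Its centred change with WX-02-23 was -0.02, with an interval from -0.12 to 0.09. After centring, its change with WX-02-43 was 0.05 with an interval from -0.05 to 0.15, opposite in sign to the uncentred folds, and it was not called. Estimates with WX-02-23 for the other 10 lay between -0.07 and 0.06.

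**Figure D4:**
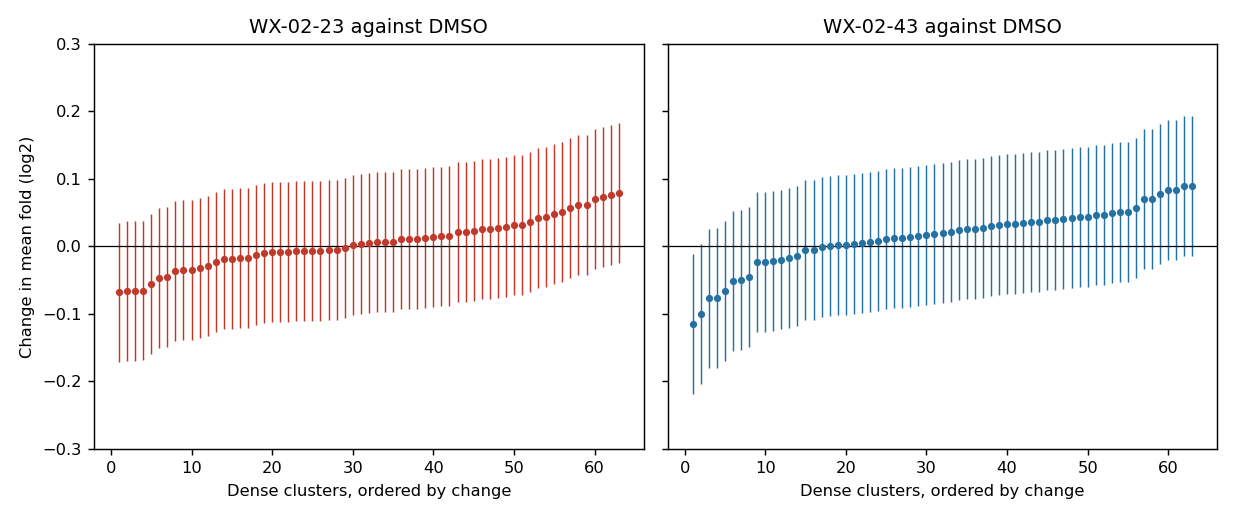
Change of each of the 63 dense clusters in mean fold enrichment (log2) against DMSO, with WX-02-23 on the left and WX-02-43 on the right; points are limma estimates from 3 libraries a group, bars are 95% intervals, and clusters are ordered by change within each panel. Changes run from -0.07 to 0.08 with WX-02-23 and from -0.11 to 0.09 with WX-02-43. All bars have the same length, as the spread was pooled over the dense clusters, and they may be too short for a single cluster.

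The member that rose was the 11th of 15 regions in the chromosome 17 cluster from 42143841, and spans 42209715 to 42210455 (741 bp). Its summit pileup was 12, 12 and 13 fragments in DMSO, 36, 29 and 25 with WX-02-23 and 15, 16 and 11 with WX-02-43. Its fold was 5.33, 5.46 and 5.60 in DMSO, 9.76, 9.45 and 8.55 with WX-02-23 and 5.90, 5.98 and 4.09 with WX-02-43. All 3 WX-02-23 libraries lay above the other 6 on both measures, and DMSO and WX-02-43 overlapped in fold. The change in fold was 0.75 ± 0.16 on the log2 scale (SE; limma, adjusted p = 0.0176). It was 0.73 against WX-02-43 (adjusted p = 0.0218). Leaving out any 1 of the DMSO libraries, or WX-02-23 replicate 1 or 2, kept the change between 0.72 and 0.78 but ended the call by fold. The call against WX-02-43 ended without WX-02-23 replicate 1 or 2 or WX-02-43 replicate 3, the last with a change of 0.53. The change in pileup was 1.30 (adjusted p = 3.54e-08), and that call was kept in each of the 9 fits that left out 1 library.

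The member that fell lay on chromosome 11 from 64869322 to 64870297 (976 bp), the 4th of 11 regions in a 57.3 kb cluster that starts at 64845670. Its summit pileup was 44, 63 and 56 fragments in DMSO, 34, 30 and 30 with WX-02-23 and 45, 58 and 54 with WX-02-43. Its fold was 5.36, 6.96 and 5.91 in DMSO, 3.20, 3.77 and 3.55 with WX-02-23 and 5.67, 5.97 and 5.74 with WX-02-43. The WX-02-23 libraries were again apart from the other 6, here below them, while DMSO and WX-02-43 overlapped. The change in fold was -0.80 ± 0.12 (SE; limma, adjusted p = 0.00251), and -0.82 against WX-02-43 (adjusted p = 0.00203). Both calls were kept whichever library was left out. Neither cluster was called as a whole: the mean change was -0.01 in the chromosome 17 cluster and -0.03 in the chromosome 11 cluster.

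Since fold sets a peak against its surroundings, summit pileup was tested too, as a second measure. It called 25 of 799 members (3.13%) between WX-02-23 and DMSO, 11 higher and 14 lower, both members above included. The same test called 8.12% of all constitutive regions, 4.78% higher and 3.35% lower, and 8.98% of single regions. The 25 lay in 18 clusters, their changes ran from -0.89 to 1.30, and 4 of them changed by more than 1.5-fold. Only 8 of the 25 kept the call in each of the fits that left out 1 library, and the count ran from 19 to 29 over those fits.

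Some clusters held calls in both directions by pileup. Of the 5 clusters with more than 1 called member, 3 had members called higher and lower. In the chromosome 17 cluster from 42143841, regions 3, 6 and 8 were lower while region 11 was higher. Region 3, from 42154120 to 42154666, had 24, 26 and 36 fragments in DMSO, 13, 16 and 16 with WX-02-23 and 18, 27 and 25 with WX-02-43. Every WX-02-23 library lay below the other 6 there. Its change was -0.89 (limma, adjusted p = 6.80e-05), and it kept the call whichever library was left out. Regions 8 and 6 changed by -0.76 and -0.46 (adjusted p = 0.00250 and 0.00758), and lost the call without DMSO replicate 3 and DMSO replicate 2 respectively. The tallest region of the cluster was not called. It was region 2, from 42147780, with 92, 99 and 110 fragments in DMSO, 110, 87 and 103 with WX-02-23 and 91, 100 and 99 with WX-02-43, which overlapped. These regions of the cluster were chosen for description after their values were seen.

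**Figure D5:**
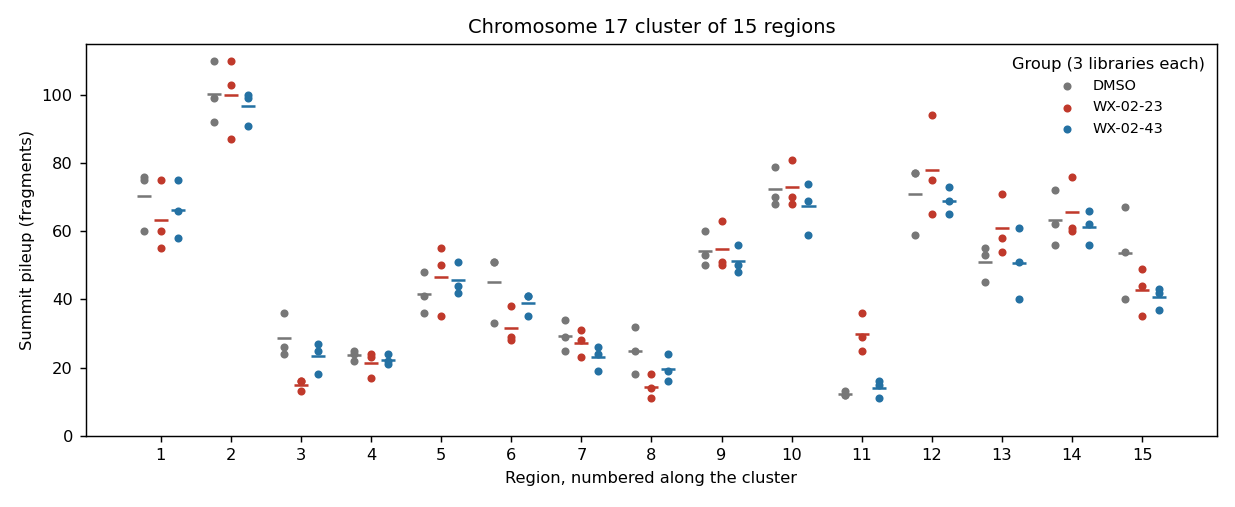
Summit pileup (fragments) in each library for the 15 regions of the chromosome 17 cluster that starts at 42143841, numbered along the cluster; points are libraries, 3 a group, and short lines are group means. Region 11 stands higher with WX-02-23 (25 to 36 fragments) than in DMSO (12 to 13), region 3 lower, and region 2 overlaps in all 3 groups.

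The cluster of 10 regions on chromosome 20 from 322305 to 362908 showed the same mixture. Its region from 326164 to 326681 had 54, 63 and 62 fragments in DMSO and 89, 70 and 71 with WX-02-23, and its region from 350766 to 351503 had 49, 45 and 59 in DMSO and 39, 31 and 32 with WX-02-23. The groups did not overlap in either region, and the changes were 0.39 and -0.55 (limma on pileup, adjusted p = 0.00153 and 0.000125). By fold the estimates for the same regions were 0.24 and -0.34, and neither was called (adjusted p = 0.445 and 0.277). In the chromosome 11 cluster, the region next to the one that fell, from 64871413 to 64871992, was called higher by pileup with a change of 0.30 (adjusted p = 0.0278), a call kept in 5 of 9 fits that left out 1 library and lost without DMSO replicate 2 or 3 or WX-02-23 replicate 1 or 2.

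By mean pileup, 3 of 63 dense clusters were called between WX-02-23 and DMSO, where 7.44% of all stitched clusters were. Both that were higher lay on chromosome 6. The first, from 26311643 to 26342567, held 10 regions at a median gap of 458 bp, the shortest of all dense clusters. Its mean pileup was 49.2, 55.8 and 55.2 fragments in DMSO, 65.3, 51.2 and 58.1 with WX-02-23 and 48.3, 59.1 and 59.1 with WX-02-43, so that the uncentred values overlapped. After centring on each library's median the change was 0.16 with a 95% interval from 0.07 to 0.25 (limma, adjusted p = 0.0121). The second, from 26520686 to 26572458, changed by 0.16 (adjusted p = 0.0183). A cluster on chromosome 19 from 1154919 to 1228023 was lower, at 41.8, 34.4 and 38.1 fragments with WX-02-23 against 39.7, 42.1 and 47.0 in DMSO, which overlapped before centring. Its centred change was -0.19 (limma, adjusted p = 0.00258). The standard errors of these 3 changes were 0.0461, 0.0460 and 0.0459. Their intervals and p-values thus also rest largely on a spread pooled over dense clusters, and may be too favourable. The first call was lost without DMSO replicate 3 or WX-02-23 replicate 3, the second without either of these or WX-02-23 replicate 2, and the third without WX-02-23 replicate 1. With 1 library left out at a time, the changes ran from 0.09 to 0.21 for the first, from 0.10 to 0.20 for the second and from -0.22 to -0.15 for the third. By fold the estimates for the same clusters were 0.01, 0.04 and -0.07, and none was called. Over all 63 clusters the 2 measures leaned differently, with 34 above 0 by fold and 13 by pileup, though clusters of the same libraries can shift together.

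WX-02-43 was compared with DMSO at the same dose and time. No member was called by fold, where 0.00168% of all constitutive regions were (limma, smallest adjusted p of a member 0.434). At an unadjusted p under 0.05, 32 members passed by fold (4.01%, against 7.36% of all). No member was called by pileup, where 0.337% of all were (limma, smallest adjusted p 0.0760). By pileup 70 members had an unadjusted p under 0.05, but the share of all regions at that cutoff was not computed, so this count has no comparison. Without DMSO replicate 3 the pileup test called 1. The median change in fold was 0.03 with quartiles of -0.05 and 0.10, beside 0.02 over all constitutive regions, and 775 members had an interval within 1.5-fold. The member that came furthest down in fold lay on chromosome 19 from 1181634 to 1181989, with folds of 6.61, 5.54 and 6.24 in DMSO, 4.31, 5.42 and 5.80 with WX-02-23 and 3.97, 4.62 and 3.55 with WX-02-43. Its WX-02-43 libraries lay below the DMSO ones, but the change of -0.52 did not pass (limma, adjusted p = 0.434).

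As wholes, no dense cluster was called between WX-02-43 and DMSO by fold (0.00507% of all stitched clusters were) or by pileup (0.0355%). At an unadjusted p under 0.05, 1 cluster passed by fold. Cluster changes ran from -0.11 to 0.09, 46 of 63 lay above 0 by fold and 14 by pileup, and 61 of 63 intervals lay within 0.2 of 0. As above, the clusters can shift together within a library, so these counts are not separate evidence and the intervals may be too narrow. The 2 comparisons with DMSO share their control libraries, so their values are not independent.

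The 2 compounds were also compared directly. By fold the same 2 members were called between WX-02-23 and WX-02-43 as between WX-02-23 and DMSO, 0.250% of members where 1.95% of all constitutive regions were. No dense cluster was called, where 1.81% of all stitched clusters were, and no cluster difference had an interval reaching beyond -0.19 or 0.18. These intervals too may be too narrow, for the reason given above. By pileup, 10 members were higher and 5 lower with WX-02-23 (1.88% together). Of all constitutive regions the test called 6.71%, 2.81% higher and 3.9% lower. They lay in 11 clusters, and no cluster was called as a whole, where 5.81% of all stitched clusters were. Without WX-02-23 replicate 2, or without WX-02-43 replicate 3, the count of members was 8. One that kept the call in all 9 of these fits was region 16 of the 22 on chromosome 16 from 3139083, which spans 3221942 to 3222552. It had 45, 47 and 58 fragments in DMSO, 73, 51 and 63 with WX-02-23 and 33, 43 and 45 with WX-02-43. The WX-02-23 libraries lay above the WX-02-43 ones and overlapped DMSO before centring. The difference between the compounds was 0.62 (limma on pileup, adjusted p = 2.37e-06). Against DMSO the same test also called this region higher with WX-02-23, by 0.34 (limma on pileup, adjusted p = 0.0254). That call was kept in 5 of the 9 fits that left out 1 library. It was lost without DMSO replicate 1 or 2 or WX-02-23 replicate 1 or 3, all of them libraries of the groups compared.

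The spans of the dense clusters also held 209 regions that were not in all 9 lists, 0 to 10 per cluster, which the choice of members had not used. These other regions were small, with a median width of 228 bp, yet their median summit pileup of 34 fragments exceeded the 13 of regions outside all 9 lists in general. A list gives no value below its own threshold, so a missing peak does not mean that no fragments were there.

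Few of these regions followed a compound. Held by all 3 WX-02-23 libraries and by no DMSO library were 2 of 209 (0.957%), against 3.28% of all such regions. One lay on chromosome 9 from 130731071 to 130731298, with 38, 32 and 33 fragments under WX-02-23 and 33 in 1 WX-02-43 library. The other lay on chromosome 10 from 135139240 to 135139432, with 43, 31 and 32 fragments under WX-02-23 and peaks in 2 WX-02-43 libraries. In the opposite direction, 1 of 209 (0.478%) was held by all DMSO and no WX-02-23 libraries, against 1.37% of all. It lay on chromosome 12 from 53289101 to 53289467, with 25, 19 and 25 fragments in DMSO and 18, 19 and 25 with WX-02-43.

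With WX-02-43, none of the 209 was gained against DMSO, where 0.616% of all were, and 3 (1.44%) were lost, where 0.681% of all were. The lost ones lay on chromosome 6 from 28778544 to 28778772 inside the 109 kb cluster, on chromosome 17 from 1927012 to 1927265, and on chromosome 19 from 45606371 to 45606597. In DMSO they had 20, 21 and 26 fragments, 25, 29 and 44, and 16, 21 and 22, and each was also held by WX-02-23 replicate 1, the longest list, and by no other WX-02-23 library. These counts were small and were not tested.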

How the data were processed

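Chromatin accessibility was measured by ATAC-seq in 9 libraries, prepared with Active Motif's kit (per the labels' protocols). The submitters' processing notes name Bowtie2, MACS2 and the build hg19. Versions, peak-calling settings, shifting of read ends, duplicate removal and any control library were not given in the sources used here. The authors' deposited lists, 1 per library, give each peak an interval, a score, a fold enrichment (a ratio), a −log10 p and a −log10 q (lowest per list 2.00 to 2.17) and a summit. The deposited score was not used. Read totals were not analysed here.

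Intervals on chromosomes 1 to 22 and X sharing at least 1 bp were merged with pandas 2.3.3. A region's value in a library was the highest fold of its peaks there, on the log2 scale with no pseudocount. Summit pileup and local background were solved from the authors' deposited fold and −log10 p under the Poisson formula of MACS2, with the pileup as a whole number. It matched within 0.002 for 100% of peaks in every list, against at most 1.47% when p-values were shuffled. Whether these fragments are single reads or pairs is unknown.

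Log2 values were centred on each library's median over constitutive regions and fitted in limma 3.58.1 (R 4.3.3) over all 59637 regions and, as cluster means, over all 39430 stitched clusters, with all 9 libraries and a group-means model. Benjamini-Hochberg adjustment covered every region or cluster, with a threshold of 0.05. For clusters the planned trend of the spread over the number of regions could not be fitted, since most clusters hold 1 region. The prior spread was instead estimated within bins of 1, 2, 3, 4, 5, 6 to 9, and 10 or more regions. Scripts were tested on simulated data.

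The clusters described were the 12 with most regions (ties by span), the 3 longest and any past the threshold. Regions described were, for each compound and direction, the first 5 members past the threshold by size of change whose groups did not overlap, and, among other regions in spans, the first 5 gained or lost by the lowest −log10 q. Other regions and clusters, and those named from pileup, were chosen after their values were seen. The members and the rules were chosen with earlier results of these data known. A genome and annotation of hg19 were not used here, so gene names, sequences, motifs and cell markers planned were not analysed. Coordinates count from 1. Alternatives were summit pileup in place of fold, quantile normalization, no centring, gaps of 5 and 25 kb, peaks of −log10 q of at least 5, at least 50% of a region covered, lists of equal length (81962 peaks), a replicate block and leaving out each library; the fit of pileup under its own alternatives was added after seeing the data.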

Additional observations from a re-analysis of the deposited data

How the results depend on the processing

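Of 100 values of the main results under alternatives other than leaving out a library, 62 stayed within 1.5 times the main count or within 1 SD between replicates (for medians), and 38 moved. This sorting did not record direction. The median change of members changed sign under some alternatives in every comparison. The stitching gap set the size of the set: 5 kb left 3 dense clusters of 32 regions and 25 kb gave 494 of 7269, and requiring half-covered regions (at least 50%) left 28 of 326. Member calls between WX-02-23 and DMSO (2) became 25 by summit pileup (3.13% of members against 8.12% of all constitutive regions) and 0 at 5 kb. They became 38 at 25 kb (0.523% against 1.92%), 1 with −log10 q of at least 5 (0.144% against 1.74%) and 1 with 50% cover (0.307% against 0.870%). Between the compounds they became 15 by pileup (1.88% against 6.71%), 0 at 5 kb, 43 at 25 kb (0.592% against 1.95%) and 1 with 50% cover (0.307% against 0.834%). Dense clusters called (0) became 3 by pileup for WX-02-23 against DMSO (4.76% against 7.44% of all stitched clusters) and 1 at 25 kb (0.202% against 2.02%). Between the compounds they became 1 without centring (1.59% against 0.692%) and 5 at 25 kb (1.01% against 2.22%). For WX-02-43 against DMSO they became 1 at 25 kb (0.202% against 0.0143%). Between the compounds, the median change of members was -0.0212 in the main fit and 0.0700 without centring. For WX-02-43 against DMSO it was 0.0253 in the main fit, -0.0585 without centring, -0.0286 by pileup and 0.0759 at 5 kb. The other regions in spans, 209 in the main set, numbered 7 at 5 kb, 2708 at 25 kb, 175 with −log10 q of at least 5, 118 with 50% cover and 203 with lists of equal length, so their counts come from sets of different size. Of these, WX-02-23 gained 0 at 5 kb, 42 at 25 kb and 1 with 50% cover, and lost 0 at 5 kb, 39 at 25 kb, 0 with −log10 q of at least 5 and 2 with lists of equal length. WX-02-43 gained 6 at 25 kb and 1 with either −log10 q of at least 5 or lists of equal length, and lost 0 at 5 kb, 44 at 25 kb, 1 with −log10 q of at least 5 and 5 with 50% cover. The cause of changes other than those of the gap was not tested. Leaving out each library in turn gave 1 to 2 member calls for WX-02-23 against DMSO (1 without DMSO replicate 2 or 3 or WX-02-23 replicate 2), 1 to 2 between the compounds (1 without WX-02-23 replicate 1 or 2 or WX-02-43 replicate 3) and 0 in every case for WX-02-43. Dense clusters called by fold stayed at 0 in all 3 comparisons. The medians ran from -0.03 to 0.04, -0.04 to 0.01 and -0.01 to 0.06. Other regions ran from 2 to 7 gained and 1 to 8 lost with WX-02-23, and 0 to 2 gained and 5 to 12 lost with WX-02-43, where fewer libraries had to match. Deviations of same-numbered libraries correlated at -0.12 to 0.14, and those of differently numbered ones at -0.11 to 0.11. These values gave no sign of pairing by number, but cannot show whether libraries were handled together. With a replicate block, 3 members were called for WX-02-23 against DMSO (1 higher, 2 lower, 0.375% against 1.97% of all constitutive regions). That fit called 2 members between the compounds (0.250% against 2.07%), 0 for WX-02-43 and 0 dense clusters. With 3 libraries a group the median standard error of a member's change was 0.12, which sets what a single region could show.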
